A study of Gallus gallus with 6 samples.

Results

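The folding machinery of the endoplasmic reticulum (ER) and the genes of the unfolded protein response were examined through 10 genes: HSPA5, HSP90B1, DNAJB9, DNAJC3, PDIA3, PDIA4, PDIA6, ERO1A, XBP1 and EDEM1. The genes were chosen by name for their roles, with earlier results of these data known, and each was matched to 1 locus among the 17340 loci of the deposited table by its gene symbol. None of the 10 loci joins several genes, and all 10 reached the mean of at least 1 FPKM (fragments counted per unit of transcript length and of library size) that was required for testing, as did 9816 loci in all. The series compares primary lens epithelial cells of White Leghorn chick embryos at embryonic day 10 that received 1 mM dimethyloxalylglycine (DMOG) for 4 h with cells of the same kind left untreated, in 3 libraries per condition. Both conditions were plated on laminin and grown in serum-containing medium before RNA was taken. DMOG is a 2-oxoglutarate analog that inhibits the prolyl hydroxylases that mark HIF1α for degradation. It also inhibits other 2-oxoglutarate-dependent enzymes, so the treatment is not specific to HIF1α. The study's methods call the 3 libraries of each condition biological triplicates. The labels give no vehicle for the untreated cells, and they do not say whether the triplicates came from separate pools of embryos, so the spread between libraries may be partly technical.

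Secreted and membrane proteins enter the ER unfolded, where chaperones of the HSP70 and HSP90 families hold them and protein disulfide isomerases form and rearrange their disulfide bonds. The electrons removed in disulfide formation pass from the isomerases to the oxidase ERO1 and from there to oxygen, which ties this step to oxygen supply. When unfolded proteins accumulate, the sensors IRE1, PERK and ATF6 raise chaperone and degradation genes and lower translation. In the lens, epithelial cells use this pathway to make membrane and capsule proteins, and fiber cells later lose the ER together with their other organelles.

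Of the 10 genes, 1 passed the limits of the study. These are an absolute log2 fold change of 0.6 or more and an unadjusted p under 0.05. They were applied here to limma fits, whereas the study applied them to edgeR results. ERO1A rose, with a ratio of mean FPKM of 3.54. None of the chaperones, disulfide isomerases, cochaperones or degradation genes among the 10 passed these limits, and neither did XBP1. Among all tested loci, 2.84% passed these limits upward and 4.97% downward, and 1 gene of 10 does not set the group apart from that background. These were 279 and 488 loci, and when every library was scaled to the same median the split turned to 413 and 323. In these bulk libraries, fewer cells that express a gene and less of its RNA per cell cannot be told apart.

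**Figure D1:**
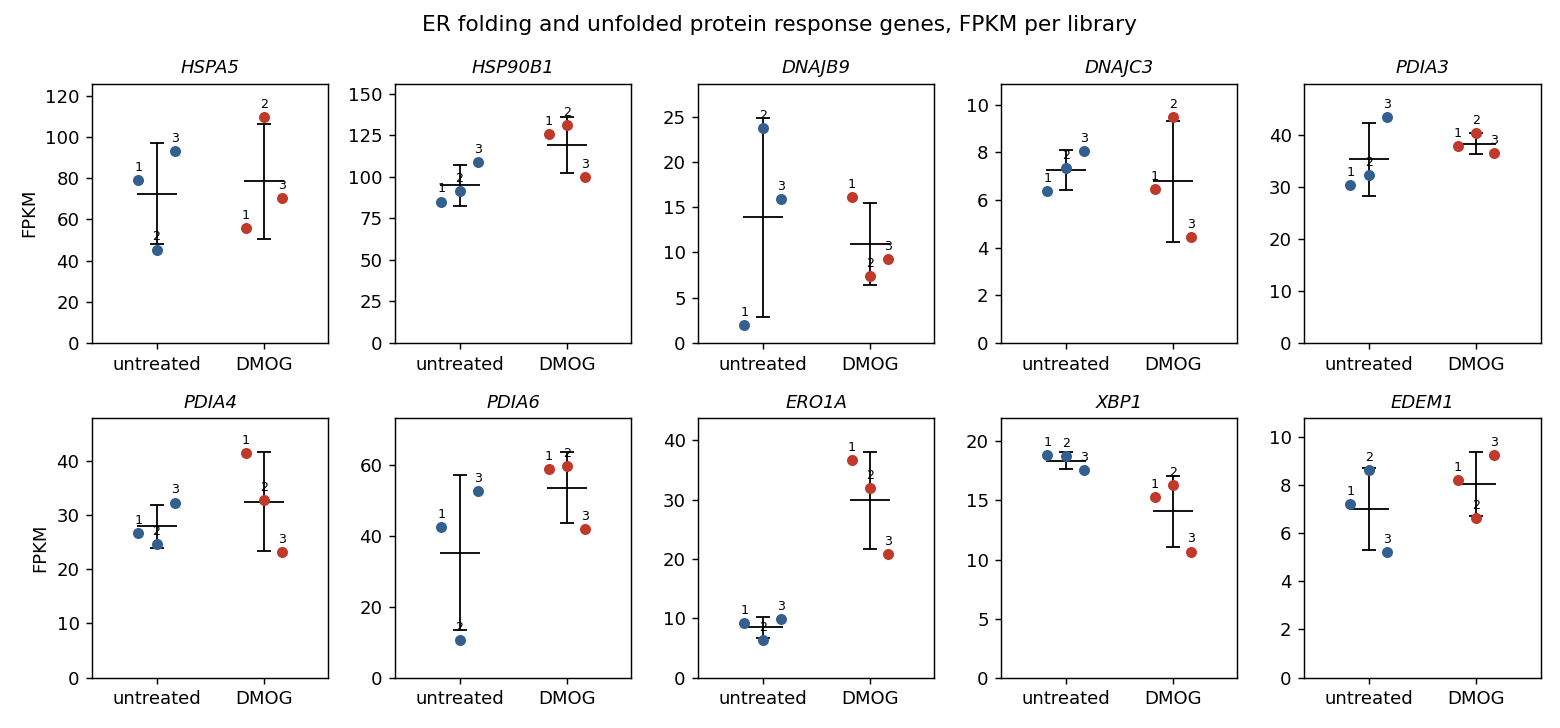
FPKM of each of the 10 genes (y axis, from 0) in the 3 untreated libraries (blue) and the 3 DMOG libraries (red), numbered by replicate, with the mean and SD of each condition in black. ERO1A lies between 20.90 and 36.69 FPKM with DMOG and between 6.36 and 9.86 without it, and the XBP1 values do not overlap either, whereas the other 8 genes overlap between conditions.

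ERO1A encodes the ER oxidoreductase that reoxidizes protein disulfide isomerase, and in mammals it is a known target of hypoxia signaling. Libraries 1, 2 and 3 of the DMOG cells stood at 36.69, 32.01 and 20.90 FPKM for ERO1A, and those of the untreated cells at 9.13, 6.36 and 9.86 FPKM, and all triplets of values below follow this order. The lowest DMOG library lay above the highest untreated library, as in 4.47% of all tested loci. The DMOG values were spread more widely than the untreated values in absolute terms. The mean was 29.9 FPKM (SD 8.11, n = 3) with DMOG and 8.45 FPKM (SD 1.85, n = 3) without it. On log2(FPKM + 0.5) the fitted change was 1.75 (SE 0.27, 95% interval 1.11 to 2.38, unadjusted p 2.741e-04 in limma). The Benjamini-Hochberg adjusted p in limma was 0.0724, above 0.05. The adjusted p for ERO1A depended on how the libraries were scaled: it was 0.0248 when every library was scaled to the same median and 0.0403 with quantile normalization, and it ranged from 0.0248 to 0.346 over 15 alternative settings. Its fold change kept its direction and stayed past the unadjusted limits in all 15, between 1.57 and 1.98. A two-sided exact permutation test of ERO1A over the 6 libraries gave p = 0.1, the smallest that 3 libraries against 3 allow. Any gene without overlap between conditions gives this p, and XBP1, which did not pass the limits, gave it as well.

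At an adjusted p under 0.05, 0 of the 10 genes passed in limma, where 0.194% of all tested loci did. In the same fits, 9.0% of all tested loci had an unadjusted p under 0.05, as did 1 of the 10 genes. The median log2 fold change was 0.16 over the 10 genes and -0.13 over all tested loci. Relative to the median locus, 8 genes lay above and 2 below. Apart from ERO1A, the fitted log2 fold changes of the other 9 genes ran from -0.39 to 0.86, with adjusted p from 0.618 to 0.977 in limma.

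**Figure D2:**
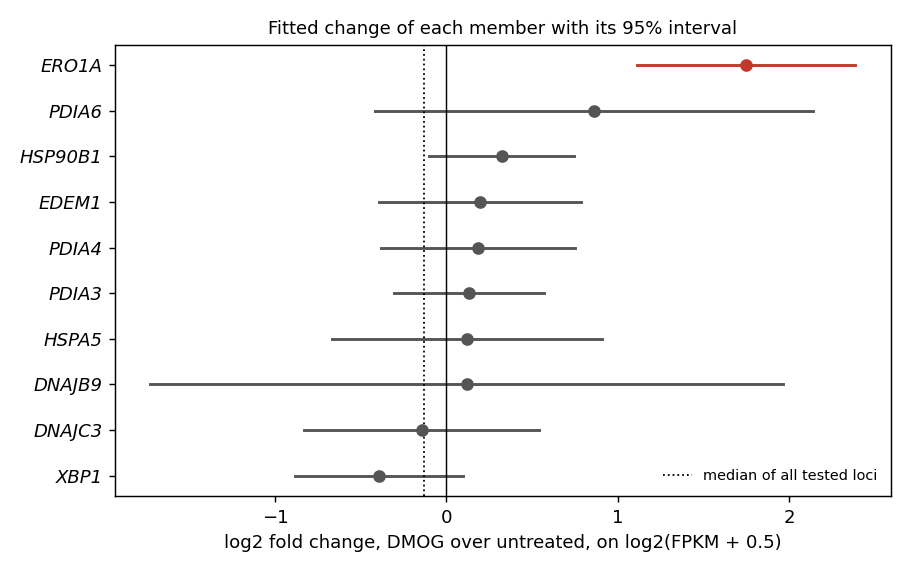
Fitted log2 fold change of each gene (x axis, DMOG over untreated on log2(FPKM + 0.5)) with its 95% interval from limma; red marks the gene past the limits, and the dotted line the median of all tested loci at -0.13. The interval of ERO1A runs from 1.11 to 2.38, and those of the other 9 genes include 0.

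HSPA5 and HSP90B1 are the HSP70 and HSP90 chaperones of the ER lumen, and HSPA5 (BiP) also holds the stress sensors inactive. HSPA5 is the gene most widely read as a sign of ER stress. It stood at 55.57, 109.46 and 70.46 FPKM under DMOG, against 78.92, 45.34 and 92.97 FPKM in untreated cells. The highest and the lowest values of the series fell in DMOG library 2 and untreated library 2, and the conditions overlapped almost completely. The mean level was 78.5 FPKM (SD 27.8) in DMOG libraries against 72.4 FPKM (SD 24.5) in untreated ones, and the fitted log2 fold change was 0.12 (SE 0.34, limma adjusted p 0.942). The 95% interval ran from -0.67 to 0.91, or from a 0.630-fold to a 1.88-fold level, so a moderate change in either direction was not detectable with these libraries. Without DMOG library 2 the HSPA5 value was -0.15, and without untreated library 2 it was -0.18.

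HSP90B1 (GRP94), which folds integrins and other secretory clients, stood at 126.16, 131.26 and 100.18 FPKM under DMOG, against 85.21, 91.25 and 108.96 FPKM in untreated cells. DMOG libraries 1 and 2 were above every untreated library, and DMOG library 3 was below untreated library 3. The fitted change was 0.32 (SE 0.18, 95% interval -0.10 to 0.74, limma adjusted p 0.644). Its upper bound corresponds to 1.68-fold, below the lower bound of 2.16-fold for ERO1A.

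DNAJB9 (ERdj4) and DNAJC3 (p58IPK) are J-domain cochaperones of HSPA5. DNAJB9 is induced through XBP1 in mammals and represses the sensor IRE1, and DNAJC3 restrains the kinase PERK. DNAJB9 stood at 16.10, 7.43 and 9.25 FPKM under DMOG, against 2.02, 23.81 and 15.86 FPKM in untreated cells. Untreated library 1 stood far under the other 5 libraries, and the untreated values had a coefficient of variation of 79.3%. The fitted change of 0.12 (SE 0.79, limma adjusted p 0.977) had a 95% interval from -1.73 to 1.96, so almost nothing can be said of the direction of DNAJB9. Its mean FPKM differed in the other direction from the fitted change, at 10.9 FPKM (SD 4.57) under DMOG against 13.9 FPKM (SD 11.0) in untreated cells. Without untreated library 1 its change was -0.88 (SE 0.38, limma adjusted p 0.866).

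DNAJC3 stood at 6.47, 9.47 and 4.43 FPKM under DMOG, against 6.40, 7.36 and 8.04 FPKM in untreated cells. All 3 untreated values fell within the range of the DMOG values. Its change was -0.15 (SE 0.29, 95% interval -0.83 to 0.54, limma adjusted p 0.902), and without DMOG library 3 it was 0.11.

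PDIA3, PDIA4 and PDIA6 are protein disulfide isomerases with thioredoxin-like domains. PDIA3 (ERp57) works with the lectin chaperones calnexin and calreticulin on glycoproteins, and PDIA4 and PDIA6 associate with HSPA5. PDIA3 stood at 38.01, 40.53 and 36.50 FPKM under DMOG, against 30.33, 32.28 and 43.44 FPKM in untreated cells. The DMOG libraries lay close together, with a coefficient of variation of 5.31%, inside the range of the untreated libraries. The change of PDIA3 was 0.13 (SE 0.19, limma adjusted p 0.855), with a 95% interval from -0.31 to 0.57.

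PDIA4 stood at 41.43, 32.79 and 23.19 FPKM under DMOG, against 26.76, 24.70 and 32.31 FPKM in untreated cells. DMOG libraries 1 and 3 were the highest and the lowest of all 6. The change of PDIA4 was 0.18 (SE 0.24, 95% interval -0.38 to 0.75, limma adjusted p 0.841), and it was -0.01 without DMOG library 1.

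PDIA6 stood at 58.88, 59.63 and 41.97 FPKM under DMOG, against 42.45, 10.64 and 52.42 FPKM in untreated cells. The low value of untreated library 2 set the size of the difference: the fitted change was 0.86 (SE 0.55, limma adjusted p 0.682) over all libraries and 0.16 without that library. DMOG libraries 1 and 2 were nonetheless the highest of the 6, and DMOG library 3 was below untreated library 1. The 95% interval of PDIA6, from -0.42 to 2.14, overlaps that of ERO1A.

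XBP1 encodes the transcription factor whose mRNA is spliced by IRE1 to make the active form, and EDEM1, a target of XBP1 in mammals, directs misfolded glycoproteins to degradation. FPKM of the XBP1 locus counts spliced and unspliced mRNA together, so IRE1 activity cannot be read from it. XBP1 stood at 15.28, 16.30 and 10.68 FPKM under DMOG, against 18.82, 18.75 and 17.56 FPKM in untreated cells. Every DMOG library was below every untreated library, a separation that 11.4% of all tested loci showed in that direction, against 4.47% in the other. The untreated values were the tightest of the 10 genes, with a coefficient of variation of 3.85%. The change of XBP1 was -0.39 (SE 0.21, 95% interval -0.88 to 0.10, limma adjusted p 0.618) and was under the limit on the fold change. Relative to the median locus it was -0.26.

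EDEM1 stood at 8.21, 6.63 and 9.25 FPKM under DMOG, against 7.19, 8.60 and 5.23 FPKM in untreated cells. The conditions overlapped, and the change of 0.20 (SE 0.25, 95% interval -0.39 to 0.79, limma adjusted p 0.834) was of the size of its error. EDEM1 was the single member highest in DMOG library 3 and lowest in untreated library 3 at the same time.

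In untreated cells the levels were put in order between genes, which FPKM allows because it is scaled by length. HSP90B1 was highest at 95.1 FPKM (SD 12.3) and HSPA5 followed at 72.4 FPKM (SD 24.5), and their means exceeded those of 98.3% and 97.6% of the tested loci. The 3 disulfide isomerases came next, with mean levels of 35.4 FPKM (SD 7.07) for PDIA3, 35.2 FPKM (SD 21.8) for PDIA6 and 27.9 FPKM (SD 3.94) for PDIA4. XBP1 at 18.4 FPKM (SD 0.708) and DNAJB9 at 13.9 FPKM (SD 11.0) were intermediate, and ERO1A, DNAJC3 and EDEM1 closed the order at 8.45, 7.27 and 7.01 FPKM. Of the 9 neighboring pairs in this order 7 had overlapping values, and the exceptions were the steps from HSPA5 to PDIA3 and from PDIA4 to XBP1. With DMOG, ERO1A reached a mean level close to that of PDIA4, which was 32.5 FPKM (SD 9.12).

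A ratio of 2 genes within a library does not depend on how libraries are scaled, so each gene was also set against HSPA5. ERO1A stood at 0.660, 0.292 and 0.297 of the HSPA5 level in DMOG libraries 1, 2 and 3, and at 0.116, 0.140 and 0.106 in the untreated libraries. These ratios did not overlap between conditions, and their mean log2 difference was 1.69 (two-sided exact permutation p = 0.1, and 0.9 adjusted over the 9 ratios). The ratios of the other 8 genes to HSPA5 overlapped between conditions, with log2 differences from -0.53 for XBP1 to 0.76 for PDIA6. No ratio could reach a p under 0.1 in this design.

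Many of the 10 genes were lowest or highest in the same library. DMOG library 3 was the lowest DMOG library for 7 of the 10 genes, against 46.4% of all tested loci. Untreated library 3 was the highest untreated library for 7, against 45.8% of all tested loci. Both held for 6 genes, which were HSP90B1, PDIA3, PDIA4, PDIA6, ERO1A and DNAJC3. Over all tested loci both held for 27.0%, and over 87 other tested ER loci for 35.6%. Without ERO1A the summed level of the genes was 366.1, 413.5 and 305.9 FPKM under DMOG, against 298.1, 262.7 and 376.8 FPKM in untreated cells. Summed lens markers were likewise lowest of the DMOG libraries and highest of the untreated libraries in library 3, with sums over 18 marker loci of 2130, 2130 and 1368 FPKM under DMOG, against 1684, 1429 and 2345 FPKM in untreated cells. The sums are carried by the abundant crystallins. Of 16 tested lens marker loci, 12 were both lowest in DMOG library 3 and highest in untreated library 3 of their conditions, whereas PROX1 ran the opposite way (38.27 FPKM in DMOG library 3 and 22.67 FPKM in untreated library 3). CRYBB3 was highest of the DMOG libraries in library 3, and SOX2, which passed the limits downward with a log2 fold change of -1.83 (limma adjusted p 0.461), was lowest of the untreated libraries in library 3. The part of this library difference in the results was not tested.

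**Figure D3:**
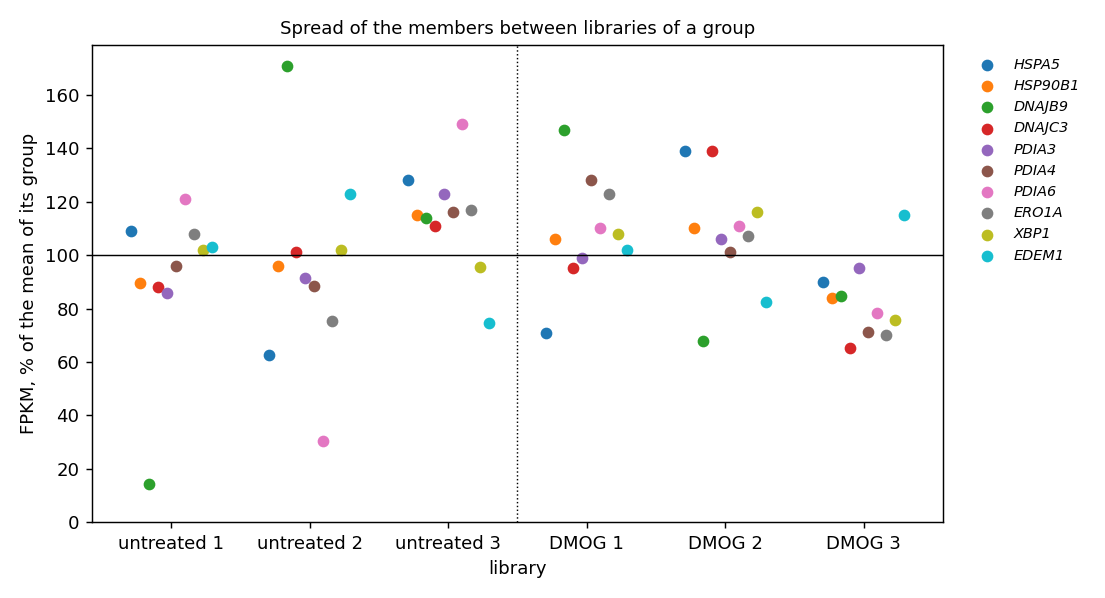
FPKM of each gene in each library as a percentage of the mean of its own condition (y axis, 100% marked), with genes as colored points. In DMOG library 3 only EDEM1 is above 100%, in untreated library 3 only XBP1 and EDEM1 are below it, and the points farthest from it are DNAJB9 in untreated libraries 1 and 2, at 14.5% and 171%, and PDIA6 in untreated library 2, at 30.3%.

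The other genes of ER folding, quality control and stress output were taken from 6 lists that name 110 genes by function. Of these, 92 loci were matched, 87 were tested, and 16 of the matched loci join several genes. By the limits of the study, 3 were higher (P4HB, CHAC1 and STC2) and 2 lower (VKORC1L1 and RETREG1), 5.75% of the tested loci against 7.81% of all tested loci. An adjusted p under 0.05 in limma was reached by 0 of them, against 0.194% of all tested loci. An unadjusted p under 0.05 was reached by 5 of them, against 9.0% of all tested loci. The median log2 fold change over the 87 loci was -0.02, or 0.11 above that of all tested loci. All 5 genes stayed past the limits in every alternative setting in which they were tested. The adjusted p of STC2 in limma was 0.0314 with median scaling, 0.0420 with quantile normalization and 0.0435 with array weights.

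**Figure D4:**
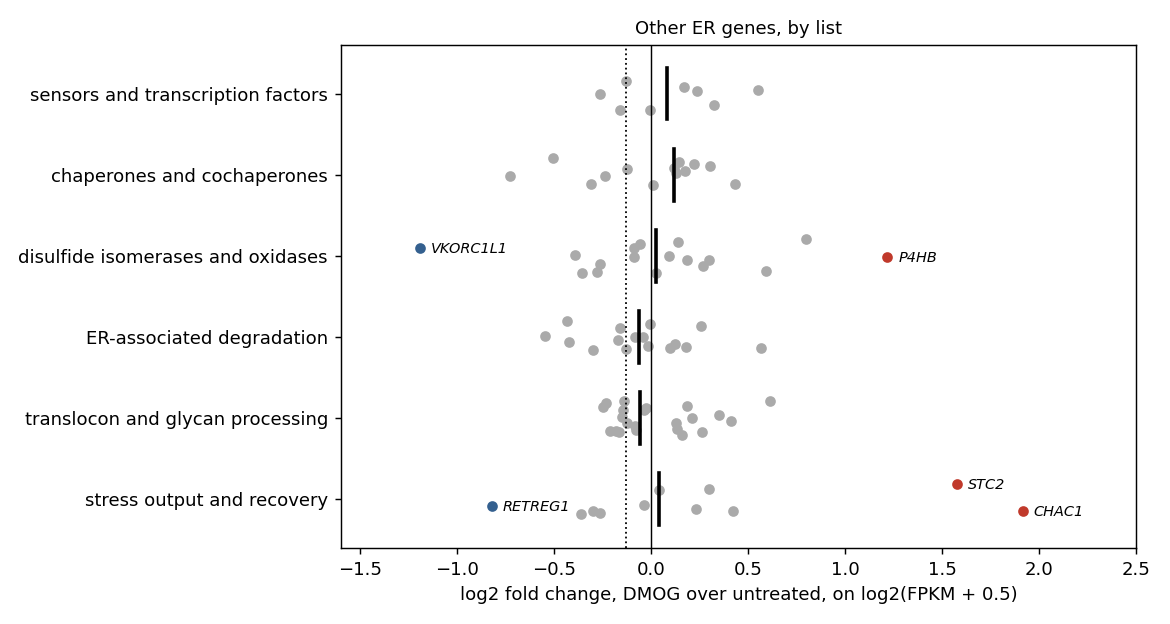
Fitted log2 fold change (x axis, DMOG over untreated on log2(FPKM + 0.5)) of the 87 other tested ER loci in 6 lists, with the median of each list as a black bar and the median of all tested loci as a dotted line. Red points were higher and blue points lower at the limits, and the 3 red points are P4HB at 1.22, STC2 at 1.58 and CHAC1 at 1.92.

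Among disulfide isomerases and oxidases 17 loci were tested, with a median log2 fold change of 0.03, 1 higher and 1 lower. P4HB, the classical protein disulfide isomerase that ERO1A oxidizes and also a subunit of collagen prolyl 4-hydroxylase, rose. It stood at 97.56, 99.98 and 64.36 FPKM under DMOG, against 29.17, 29.77 and 55.96 FPKM in untreated cells. The conditions did not overlap, although DMOG library 3 and untreated library 3 came within a short distance of each other. The fitted change of P4HB was 1.22 (SE 0.30, 95% interval 0.51 to 1.92, limma adjusted p 0.273). VKORC1L1, a paralog of vitamin K epoxide reductase that can pass electrons from isomerases, fell by 1.19 on the log2 scale (SE 0.35, limma adjusted p 0.364). It stood at 9.39, 4.75 and 5.04 FPKM under DMOG, against 9.77, 19.44 and 16.12 FPKM in untreated cells, so DMOG library 1 lay just under untreated library 1. SELENOF, a selenoprotein of the ER and the most abundant gene of this list, averaged 105.0 FPKM (SD 10.8) in DMOG and 102.9 FPKM (SD 5.32) in untreated libraries, a change of 0.03 (SE 0.15).

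Paralogs of the same enzymatic class were compared within libraries for a pair of ratios, which were chosen after their values were seen. ERO1B, the second ERO1 oxidase, stood at 5.98, 5.67 and 1.26 FPKM under DMOG, against 1.74, 3.31 and 5.11 FPKM in untreated cells, a log2 fold change of 0.19 (SE 0.58, limma adjusted p 0.946). The ratio of ERO1A to ERO1B was 6.14, 5.65 and 16.6 under DMOG, against 5.25, 1.92 and 1.93 in untreated cells, so the smallest DMOG ratio was close to the largest untreated one. The ratio of P4HB to PDIA3 was 2.57, 2.47 and 1.76 under DMOG, against 0.962, 0.922 and 1.29 in untreated cells. Mean log2 differences were 1.63 for ERO1A to ERO1B and 1.10 for P4HB to PDIA3. Each had a two-sided exact permutation p of 0.1, also after adjustment over the 2 ratios. This is the smallest possible p, and any ratio without overlap between the conditions gives it. Because both ratios were picked on their values, neither the p nor its adjustment counts as support.

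The list of stress output and recovery had 11 tested loci, with 2 higher and 1 lower and a median of 0.04. CHAC1, a glutathione-degrading enzyme induced through ATF4 in mammals, stood at 4.32, 4.97 and 3.35 FPKM under DMOG, against 0.48, 1.22 and 0.62 FPKM in untreated cells. CHAC1 rose by 1.92 (SE 0.36, 95% interval 1.07 to 2.76, limma adjusted p 0.138), and at these low levels the size depended on the pseudocount, from 1.57 to 2.38. STC2, a secreted glycoprotein that ER stress and hypoxia both induce in mammalian cells, stood at 59.56, 86.28 and 53.26 FPKM under DMOG, against 21.52, 17.46 and 26.21 FPKM in untreated cells. Every DMOG library was at least at 53.26 FPKM, and STC2 rose by 1.58 (SE 0.24, 95% interval 1.01 to 2.14, limma adjusted p 0.0724). RETREG1, a receptor for the selective autophagy of ER sheets, stood at 2.39, 3.12 and 2.54 FPKM under DMOG, against 5.12, 4.82 and 5.36 FPKM in untreated cells. RETREG1 fell by 0.82 on the log2 scale (SE 0.24, limma adjusted p 0.360), with libraries of each condition close together. KDELR2, which returns ER chaperones from the Golgi and was the most abundant of this list, averaged 76.4 FPKM (SD 5.09) in DMOG and 65.1 FPKM (SD 5.98) in untreated libraries, a change of 0.23 (SE 0.16).

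**Figure D5:**
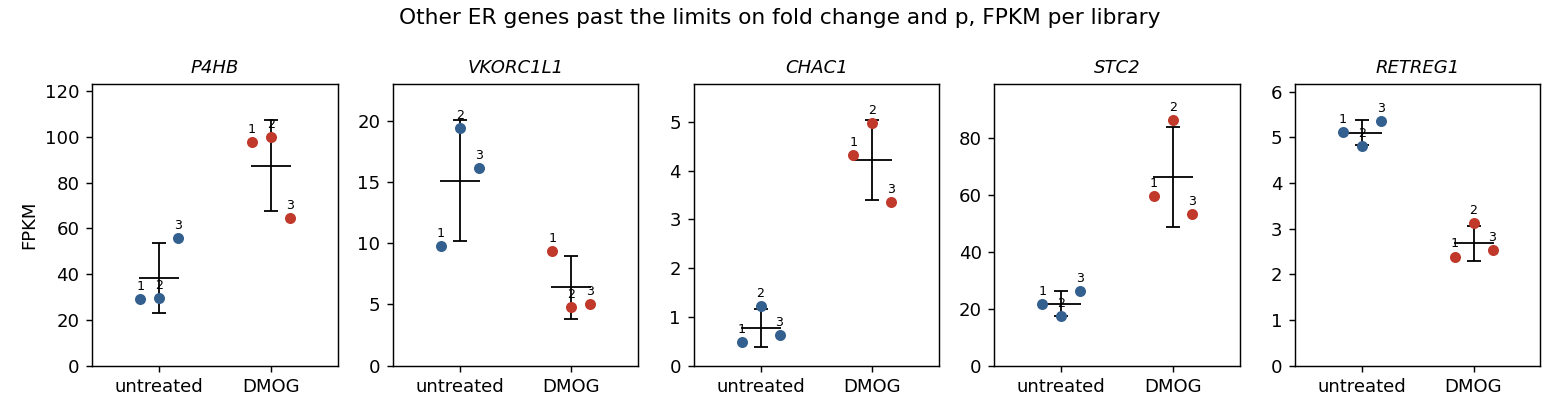
FPKM (y axis, from 0) of the 5 other ER genes past the limits, in the 3 untreated libraries (blue) and the 3 DMOG libraries (red), numbered by replicate, with mean and SD in black. In each panel every library of one condition lies on the same side of every library of the other, and the gap is narrowest for VKORC1L1, between 9.39 and 9.77 FPKM. Of the 87 other tested ER loci, 5 were separated in this way with DMOG above and 6 with DMOG below. Over all tested loci the shares were 4.47% and 11.4%.

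The sensors and transcription factors of the response had 8 tested loci, with 0 past the limits and 0 at an unadjusted p under 0.05. ATF4, the transcription factor translated when PERK is active and the most abundant of this list, averaged 86.0 FPKM (SD 22.7) in DMOG and 72.1 FPKM (SD 13.0) in untreated libraries, a change of 0.24 (SE 0.24, limma adjusted p 0.804). ATF4 activity is set mainly through translation, which mRNA levels do not show. The loci of 2 sensors join neighboring genes, ERN1 (IRE1) with TEX2 and ATF6 with an unnamed gene, so their values cannot be divided.

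Among chaperones and cochaperones 13 loci were tested, and among genes of ER-associated degradation 16, with 0 past the limits and 0 at an unadjusted p under 0.05 in either list. CANX, the calnexin of the glycoprotein folding cycle and the most abundant of the chaperone list, averaged 101.1 FPKM (SD 8.31) in DMOG and 89.8 FPKM (SD 11.9) in untreated libraries, a change of 0.17 (SE 0.17, 95% interval -0.22 to 0.57). VCP, the ATPase that extracts proteins from the ER membrane for degradation, averaged 70.2 FPKM (SD 17.4) and 74.3 FPKM (SD 19.2), a change of -0.08 (SE 0.26). The list of translocon and glycan processing genes had 22 tested loci, 0 of them past the limits or at an unadjusted p under 0.05, and a median of -0.05. Its most abundant gene SEC61B, a subunit of the channel through which proteins enter the ER, averaged 92.1 FPKM (SD 34.1) in DMOG and 104.6 FPKM (SD 25.9) in untreated libraries, a change of -0.21 (SE 0.31).

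The labels were checked on other genes. EGLN3, a HIF prolyl hydroxylase that HIF1α induces, was at 57.15, 54.04 and 47.61 FPKM under DMOG, against 1.35, 2.06 and 1.87 FPKM in untreated cells (limma adjusted p 4.386e-04). Of 9 tested genes of a HIF response list, 8 were higher at the limits, against 2.84% of all tested loci. The exception was NDRG1, with a log2 fold change of 0.02 (limma adjusted p 0.994). An adjusted p under 0.05 in limma was reached by 3 of the 9, against 0.194% of all tested loci. CA9 was past the limits but overlapped between conditions (limma adjusted p 0.489). The lens crystallin CRYAA, the most abundant of the 18 matched lens marker loci, was between 599.16 and 962.10 FPKM in the 6 libraries. Not all lens markers were high. Mean levels over the 6 libraries were 0.015 FPKM for CRYBA4, 0.947 FPKM for SOX1, 1.64 FPKM for MIP and 2.55 FPKM for CRYBB1. Of the erythroid markers, the matched hemoglobin genes were listed at 0 throughout, but ALAS2 lay between 8.12 and 12.91 FPKM and EPB42 between 5.62 and 8.24 FPKM. Of the 10 erythroid loci 7 were at 0 in all libraries, and the list summed to between 15.0 and 20.4 FPKM. Of the 12 mesenchymal loci 3 were at 0 in all libraries, among them TWIST1 and PRRX1. POSTN lay between 6.41 and 12.44 FPKM and PDGFRA between 2.20 and 6.40 FPKM. Summed mesenchymal markers other than VIM, which lens cells express, were between 10.1 and 26.7 FPKM. Summed macrophage and endothelial markers were between 14.6 and 23.5 FPKM, part of it from a locus that joins PTPRC with NEK7. Of the loci that join no other gene, CDH5 lay between 4.09 and 7.99 FPKM and PECAM1 between 2.21 and 4.92 FPKM. Retinal and pigment markers summed to between 1.1 and 4.12 FPKM.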

How the data were processed

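RNA-seq was carried out on 6 libraries of primary chick lens cells, 3 with DMOG and 3 untreated. Cutadapt trimming and mapping to galGal6 with Bowtie2 and HISAT2 were done by the authors, who assembled transcripts with StringTie and gffcompare and estimated expression with edgeR; versions are not given in the sources used here. The deposited table gives FPKM per library, rounded to 2 decimals. Its columns of fold change, log2 fold change and p-value hold the authors' own comparison and were not used.

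The conditions were compared in limma 3.58.1 under R 4.3.3 on log2(FPKM + 0.5) at loci whose mean reached 1 FPKM. The model had a term for treatment and a mean-variance trend. Benjamini-Hochberg adjustment covered the 9816 tested loci. A fold change on this scale understates the change of low loci. Ratios within libraries were tested by exact permutation in Python 3.11.15 with scipy 1.17.1. The fit was tested on simulated data.

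FPKM do not give the read depth. Low values were searched for steps of whole reads through their ratios in pairs of libraries, but no bin of ratios held more than 4.18% of loci, so precision comes from the spread between libraries alone. FPKM summed to between 169975 and 212100 per library, and 25.2% to 35.9% of loci were listed at 0.

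The 10 genes and the lists were chosen with earlier results of these data known. Named were the 10 genes, EGLN3, and from each of the 6 ER lists the genes past the limits and the most abundant gene. ERO1B, PDIA3 ratios and the collagen hydroxylase subunits were added after their values were seen, as were ERN1 and ATF6 for their joined loci. Added in the same way were the lens markers CRYAA, CRYBA4, CRYBB1, CRYBB3, MIP, PROX1, SOX1 and SOX2. So were the markers ALAS2, EPB42, TWIST1, PRRX1, POSTN, PDGFRA, PTPRC, CDH5, PECAM1 and VIM. NDRG1 and CA9 of the HIF response list were also added after their values were seen, as were QSOX2, SEC61A2 and CALU among the alternatives. The alternatives tried were pseudocounts of 0.1 and 1, a filter at 5 FPKM or none, median and quantile scaling, a replicate block, no trend, array weights and the omission of each library. Sequences were not used here.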

Additional observations from a re-analysis of the deposited data

How the results depend on the processing

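The count of 1 higher and 0 lower among the 10 genes held in all 15 alternative settings. The number with an adjusted p under 0.05 moved from 0 to 1 (ERO1A) with median scaling, quantile normalization and array weights. A mean of at least 5 FPKM left 5539 tested loci, with 183 higher and 231 lower, in place of 279 and 488 of 9816. Over all tested loci, 323 were lower with median scaling and 320 with quantile normalization. Of the loci past the limits, 36.4% were higher without added scaling, 56.1% with median scaling and 56.2% with quantile normalization. The median log2 fold change of all tested loci moved from -0.13 to -0.01 and -0.02, in that order. Leaving out each library in turn gave from 216 to 407 higher and from 328 to 768 lower loci, the last without DMOG library 1. Among the other ER genes, a mean of at least 5 FPKM gave 2 higher and 1 lower, since CHAC1 and RETREG1 were no longer tested. With median scaling and with array weights 5 were higher, which added QSOX2 and SEC61A2. Leaving out libraries gave from 3 to 5 higher and 2 to 3 lower ER genes. The 5 higher came without untreated library 3, which added CALU and QSOX2; the cause was not tested.

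Leaving out libraries in turn turned the direction of 4 genes that were not past the limits, with log2 fold changes from -0.18 to 0.34 for HSPA5, -0.88 to 0.76 for DNAJB9, -0.40 to 0.11 for DNAJC3 and -0.0084 to 0.40 for PDIA4. The log2 differences of ratios to HSPA5 ran from -0.0647 to 0.48 for HSP90B1, -1.13 to 1.05 for DNAJB9, -0.50 to 0.0363 for DNAJC3, -0.20 to 0.26 for PDIA3, -0.35 to 0.31 for PDIA4 and -0.32 to 0.56 for EDEM1. With a pseudocount in both genes the DNAJB9 ratio difference was -0.0019. The sources do not say whether same-numbered libraries were prepared together. The correlations of deviations between same-numbered libraries were -0.11, -0.17 and -0.23. Between differently numbered libraries they ran from -0.0068 to 0.16. The deviations were taken from a mean of 3 libraries per condition, so the correlations depend on one another. They do not settle whether the libraries were prepared in pairs. With the replicate block 225 loci were higher and 371 lower, 1 of the 10 genes was higher, and ERO1A had a log2 fold change of 1.75 with an adjusted p of 0.346 in limma. The spread between the 3 libraries of a condition limits what can be detected, and its SE for DNAJB9 was 0.79, or 0.38 without untreated library 1. What read depth limits is unknown.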

Other observations

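P4HB is shared between disulfide formation and collagen prolyl 4-hydroxylase, whose catalytic subunits include P4HA1 and P4HA2. Both of these genes were past the limits upward, as were 2.84% of all tested loci. They are among the 8 higher genes of the HIF response list already counted above. They were looked at here after the values of P4HB were seen. P4HA1 stood at 33.24, 30.19 and 14.32 FPKM under DMOG (libraries 1, 2 and 3), against 7.34, 7.38 and 11.35 FPKM in untreated cells. Every DMOG library was above every untreated library, as in 4.47% of all tested loci. The change of P4HA1 was 1.46 (SE 0.35, limma adjusted p 0.248). P4HA2 stood at 22.03, 22.61 and 14.47 FPKM under DMOG, against 5.15, 4.29 and 9.24 FPKM in untreated cells, a change of 1.63 (SE 0.32, limma adjusted p 0.154). In P4HB, P4HA1 and P4HA2 alike, DMOG library 3 was the lowest DMOG library and untreated library 3 the highest untreated library.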
